A study of Rattus norvegicus with 15 samples.

Results

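The 8 genes described here carry the insulin signal from the cell surface to the kinase Akt and 1 of its substrates, namely Insr, Irs1, Irs2, Pik3r1, Pik3ca, Akt1, Akt2 and Gsk3b. They were chosen by name, each as the entry of the deposited liver table with that symbol, and all 8 were found, each in 1 entry, among 26403 genes. All 8 passed the filter on low values, a mean FPKM of 1 or more in the 15 libraries together, which left 11216 genes for testing. The libraries came from livers of Wistar rats that had been refed for 24 h, the opening day of regain, and the tissue was flash frozen. In the exercise group the rats had run on a treadmill while losing weight and holding it, and were then fed ad libitum. In the gap-matched group the rats had been sedentary and were then given an energy gap-matched diet, which the labels do not define. In the sedentary group the rats had been sedentary and were then fed ad libitum. Each group had 5 libraries. The labels name only relapsing animals and no lean or still weight-reduced group, and they do not say whether each library came from a separate rat, so that p-values measure the spread between these libraries.

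Insulin binds the receptor tyrosine kinase Insr, which phosphorylates the docking proteins Irs1 and Irs2. These recruit phosphatidylinositol 3-kinase, built from a regulatory subunit such as Pik3r1 and a catalytic subunit such as Pik3ca, and the lipid it makes brings Akt to the membrane, where it is activated. In liver Akt phosphorylates Gsk3b, which releases glycogen synthase from inhibition, and FoxO transcription factors, which then leave the nucleus. Insulin acts on these proteins mainly by phosphorylation, which transcript levels do not measure, but some of the genes are also regulated as transcripts. Irs2 in particular is known to be induced in fasted liver and lowered by insulin.

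The upstream sequences of Insr and Irs1 are shown because these genes stand at the top of the pathway and had higher means in exercised rats. Each is the 250 bases before the annotated start of the gene, from RefSeq on the build GRCr8, which is not the build of the expression table, and 7 of the 8 members had an entry there. Capitals mark matches on either strand to 2 motifs. The FoxO family element was searched as GTAAACA, which reads TGTTTAC on the other strand. The GC box was searched as GGGCGG, which reads CCGCCC on the other strand. No matches to the 2 motifs overlapped in these sequences. Insr lies at chr12:6128804-6129053 and Irs1 at chr9:91053960-91054209, both on the minus strand, and both are written 5′ to 3′ along the gene.
Insr: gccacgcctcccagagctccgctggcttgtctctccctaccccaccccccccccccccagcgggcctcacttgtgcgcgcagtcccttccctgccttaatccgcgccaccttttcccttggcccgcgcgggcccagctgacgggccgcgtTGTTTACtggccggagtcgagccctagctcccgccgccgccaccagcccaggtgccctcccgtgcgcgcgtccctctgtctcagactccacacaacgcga
Irs1: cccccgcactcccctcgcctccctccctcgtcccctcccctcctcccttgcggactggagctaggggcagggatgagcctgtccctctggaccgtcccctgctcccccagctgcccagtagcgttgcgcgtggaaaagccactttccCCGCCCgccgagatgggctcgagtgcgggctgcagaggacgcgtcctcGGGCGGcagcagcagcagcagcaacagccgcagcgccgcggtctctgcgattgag
The Insr sequence held 1 match to the FoxO family element, 100 bases before the start, and 0 to the GC box. The Irs1 sequence held 2 GC boxes and 0 matches to the FoxO family element. Of the other members with an entry, Pik3ca also held 1 match to the FoxO family element, and Pik3r1 held 7 to the GC box. Akt1, Akt2 and Gsk3b held 0 matches to either motif. Irs2 had no entry. For Pik3ca and Akt1 the searched bases reach the start codon, so they may not lie before the start of the transcript. Of 33469 upstream sequences of the same length 3.21% held GTAAACA and 30.5% held GGGCGG, and a match describes letters, not a bound site.

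Absolute depth is unknown, and depth relative to sedentary library 1 ran from 0.678 to 1. The log2 values of libraries of 1 group correlated between 0.967 and 0.984. Of 10 hepatocyte markers 10 were tested, and 1, Cyp2e1, was called higher between exercise and sedentary livers (0.75 ± 0.20, limma adjusted p = 0.0408), with 9 of 10 above 0. Over all genes tested 2.51% were called higher and 51.3% had a difference above 0. The summed level of the hepatocyte markers was 42848 to 53817 FPKM in exercise, 47331 to 51246 FPKM in gap-matched and 40537 to 52136 FPKM in sedentary livers. Skeletal muscle markers summed to at most 1.12 FPKM in any library, and the insulin genes Ins1 and Ins2, markers of pancreas, were listed at 0. Cela1, the only 1 of 7 pancreas markers tested, averaged 17.2 FPKM in exercise, 36.0 FPKM in gap-matched and 23.2 FPKM in sedentary livers and did not pass. Erythroid markers summed to 894 to 1677 FPKM in exercise, 1440 to 2140 FPKM in gap-matched and 764 to 1613 FPKM in sedentary livers. Limma called 0 of 3 tested erythroid markers. Against sedentary and exercise livers, 2 had an unadjusted p under 0.05 in gap-matched livers, as had 17.8% and 16.5% of all genes. At a limma adjusted p under 0.05, 648 genes (5.78% of those tested) differed between exercise and sedentary, 342 (3.05%) between gap-matched and sedentary and 101 (0.9%) between exercise and gap-matched livers. Lower genes made up 73.1% of the calls between gap-matched and sedentary livers, but 58.9% when libraries were scaled by the median of ratios, 59.5% under quantile normalization and 83.9% with every library set to 1 sum. Between exercise and gap-matched livers they made up 23.8%, but 40.7% under the median of ratios, 36.8% under quantile normalization and 17.6% with 1 sum.

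FPKM are scaled by gene length, so that levels of different genes can be set side by side. Such comparisons also rest on the gene models and on how reads were assigned, which was not tested. The members fell into 2 tiers, in which Pik3r1, Akt1 and Akt2 had averages between 40.6 and 62.9 FPKM in every group and the other 5 genes between 2.80 and 14.1 FPKM. Over all 15 libraries Pik3r1 averaged 56.3 FPKM, which is higher than 85.9% of the tested genes, and Irs2 3.72 FPKM, higher than 23.1%. In exercised livers the order of the mean levels was Pik3r1, Akt1, Akt2, Insr, Gsk3b, Irs1, Pik3ca and Irs2. Within it only the steps from Akt2 to Insr and from Irs1 to Pik3ca separated the ranges of neighbouring genes. In gap-matched livers Gsk3b stood above Insr and the rest of the order was the same. In sedentary livers Akt1 stood above Pik3r1, and Gsk3b above Insr, and in both pairs the ranges overlapped. Irs1 was above Irs2 in every library.

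**Figure D1:**
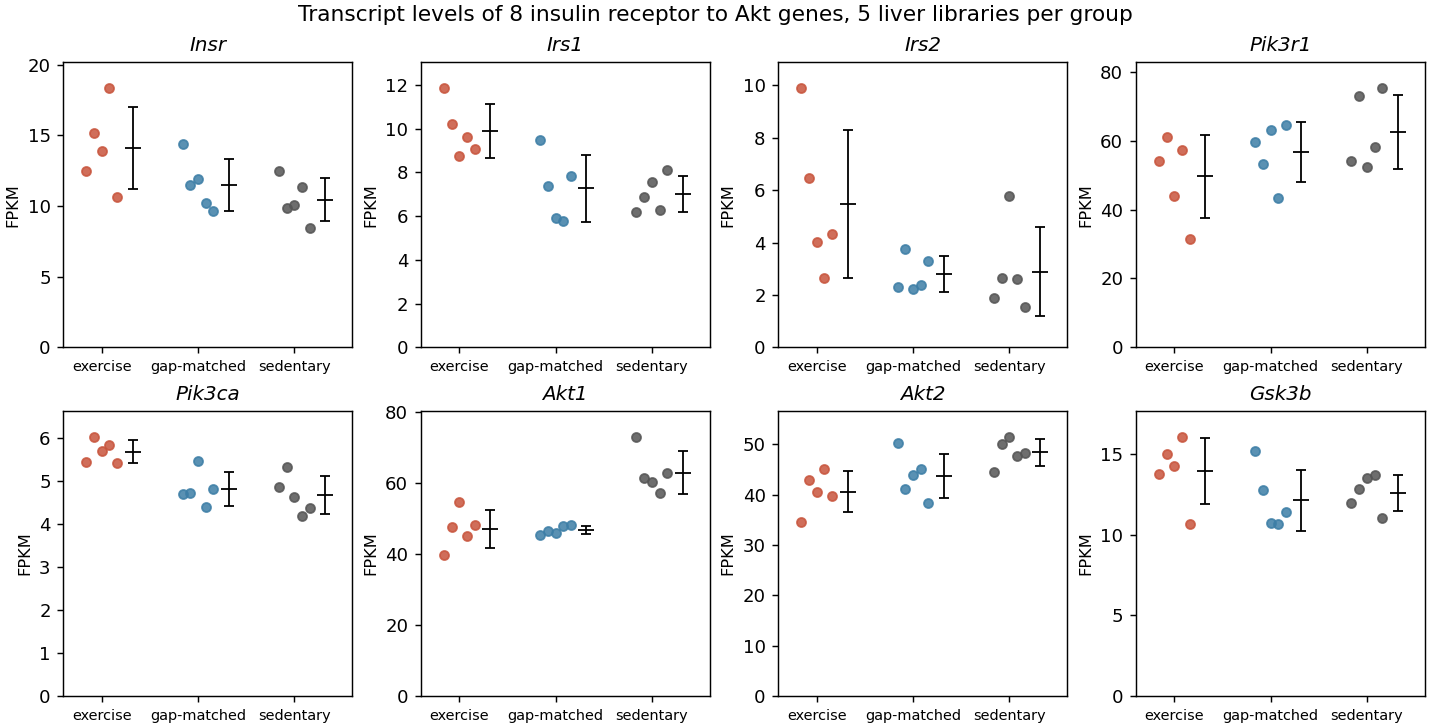
FPKM of the 8 members (y axes, from 0) in the 5 exercise, 5 gap-matched and 5 sedentary liver libraries, 1 point a library, with the group mean ± SD beside the points. Akt1 in exercise and gap-matched libraries lies at or below 54.6 FPKM, below all sedentary libraries, and Irs1 in exercise libraries lies above all sedentary ones.

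The first comparison, exercise against sedentary, addresses what regular exercise during weight loss leaves in the liver when both groups refeed freely. Irs1 rose and Akt1 fell, and the other 6 members did not pass. Thus 1 of 8 members was higher, against 2.51% of all genes tested, and 1 of 8 lower, against 3.26%. For 6 of 8 members the 95% interval of the difference excluded 0, which was so for 21.1% of all genes. In the second comparison, gap-matched against sedentary, which addresses the diet after weight loss, 0 of 8 members were higher (0.82% of all genes) and 1 of 8, Akt1, was lower (2.23%). The interval excluded 0 for that 1 member, against 17.8% of all genes. In the third comparison, exercise against gap-matched, limma called 0 of 8 members (0.9% of all genes, with 0.687% higher and 0.214% lower), and 3 of 8, Irs1, Irs2 and Pik3ca, had an unadjusted p under 0.05, against 16.5% of all genes. The first 2 comparisons share the sedentary libraries. The median difference of the 8 members was 0.18, −0.01 and 0.19 in the 3 comparisons, beside 0.01, −0.03 and 0.04 over all genes. All differences are on the log2(FPKM + 1) scale, with standard errors, and this scale understates the fold of genes near 1 FPKM, such as Irs2.

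**Figure D2:**
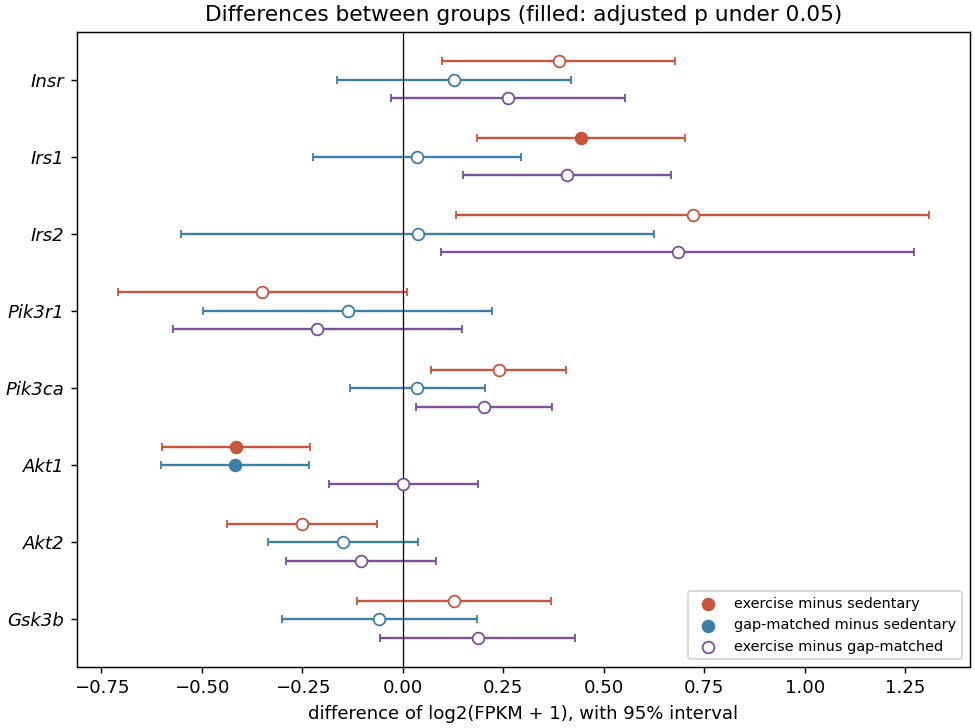
Differences of log2(FPKM + 1) between groups (x axis) for each member (y axis), with 95% intervals from limma, filled where the adjusted p was under 0.05. Only Irs1 (0.44) and Akt1 (−0.42) are filled between exercise and sedentary livers, and only Akt1 (−0.42) between gap-matched and sedentary livers.

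Insr, the receptor, had 12.5, 15.2, 13.9, 18.4 and 10.6 FPKM in the exercise libraries 1 to 5, against 14.4, 11.5, 11.95, 10.2 and 9.64 FPKM in the gap-matched and 12.5, 9.89, 10.1, 11.4 and 8.46 FPKM in the sedentary libraries. Exercise libraries 2, 3 and 4 lay above every sedentary library, while library 1 lay just below the highest sedentary library and library 5 within the sedentary range. Insr averaged 14.1 ± 2.91 FPKM in exercise, 11.5 ± 1.84 FPKM in gap-matched and 10.5 ± 1.53 FPKM in sedentary livers (SD, n = 5 each). The difference between exercise and sedentary livers was 0.39 ± 0.14 and did not pass (limma adjusted p = 0.113). It was 0.13 ± 0.14 between gap-matched and sedentary livers (0.673) and 0.26 ± 0.14 between exercise and gap-matched livers (0.359). In bulk liver, fewer cells of a type and less RNA per cell cannot be told apart. Endothelial markers had overlapping ranges, at a summed level of 112 to 151 FPKM in exercise, 100.4 to 146 FPKM in gap-matched and 87.0 to 131 FPKM in sedentary livers. Between exercise and sedentary livers 8 of these 8 markers had a difference above 0 (median 0.20), against 51.3% of all genes, and limma called 0. At an unadjusted p under 0.05 there were 0, against 21.1% of all genes. Between exercise and gap-matched livers 8 of 8 were above 0 too (median 0.18), against 57.8% of all genes, and limma called 0. Kupffer cell markers summed to 225 to 347 FPKM in exercise, 204 to 306 FPKM in gap-matched and 152 to 279 FPKM in sedentary livers, with Vsig4 listed at 0. Between exercise and sedentary livers 0 of 7 tested markers passed (median 0.37), with 3 at an unadjusted p under 0.05, against 21.1% of all genes. The part of these cells in the Insr values was not tested.

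Irs1, a docking protein that links the receptor to phosphatidylinositol 3-kinase, had 11.9, 10.2, 8.75, 9.61 and 9.07 FPKM in the exercise libraries, against 9.49, 7.39, 5.90, 5.79 and 7.84 FPKM in the gap-matched and 6.20, 6.87, 7.55, 6.29 and 8.12 FPKM in the sedentary libraries. All 5 exercise libraries lay above the highest sedentary library, which was so, in this direction, for 3.15% of all genes. Gap-matched library 1 lay within the exercise range and the other 4 below it. Irs1 rose by 0.44 ± 0.12 in exercise against sedentary livers (limma adjusted p = 0.0444), with means of 9.90 ± 1.23 FPKM in exercise and 7.01 ± 0.824 FPKM in sedentary livers. The difference was 0.41 ± 0.12 between exercise and gap-matched livers (limma adjusted p = 0.127) and 0.04 ± 0.12 between gap-matched and sedentary livers (0.921), and neither passed. The call stood close to the threshold, and in the 10 fits without 1 library it held only without exercise library 3 and without sedentary library 5. Its adjusted p reached 0.111, without exercise library 1, and its difference lay between 0.38 and 0.49. It was also lost with no filter on low genes (adjusted p = 0.112) and with libraries scaled to the same sum (0.0895). A fit with a block for the replicate number lost it too (0.0627).

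Irs2, the other main docking protein of liver, varied most of all members. It had 9.90, 6.44, 4.01, 2.66 and 4.33 FPKM in the exercise libraries, against 2.30, 3.76, 2.24, 2.39 and 3.29 FPKM in the gap-matched and 1.88, 2.66, 5.78, 2.62 and 1.52 FPKM in the sedentary libraries. Exercise libraries 1 and 2 lay above every sedentary and gap-matched library, exercise library 4 lay within both ranges, and sedentary library 3 stood well above the other sedentary ones. The coefficient of variation was 51.6% in exercise, 24.6% in gap-matched and 58.3% in sedentary livers, whereas that of Pik3ca was between 4.60% and 9.48%. The difference was 0.72 ± 0.28 between exercise and sedentary livers (limma adjusted p = 0.142) and 0.68 ± 0.28 between exercise and gap-matched livers (0.235), and neither passed. Without sedentary library 3 the first difference was 0.94 and passed (limma adjusted p = 0.0418). This was the only 1 of 10 fits without a library that passed. Over these fits the difference went down to 0.51 and the adjusted p up to 0.310. Under the other settings 0 of 11 fits passed. Between gap-matched and sedentary livers the difference was 0.04 ± 0.28 (0.963), with a 95% interval from −0.55 to 0.63.

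The ratio of Irs2 to Irs1 within a library does not depend on a factor common to that library. It was 0.834, 0.631, 0.459, 0.277 and 0.478 in the exercise libraries, against 0.243, 0.509, 0.381, 0.413 and 0.419 in the gap-matched and 0.303, 0.386, 0.766, 0.416 and 0.187 in the sedentary libraries. The groups overlapped, and Irs2 stayed below Irs1 in all 15 libraries. The log2 ratio differed by 0.44 ± 0.42 between exercise and sedentary livers (exact two-sided permutation p = 0.325, and 0.375 after Benjamini-Hochberg adjustment over the 9 ratio tests).

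Pik3r1, the main regulatory subunit of phosphatidylinositol 3-kinase, had 54.2, 61.1, 44.1, 57.4 and 31.4 FPKM in the exercise libraries, against 59.5, 53.3, 63.0, 43.3 and 64.5 FPKM in the gap-matched and 54.2, 73.0, 52.3, 58.2 and 75.3 FPKM in the sedentary libraries. The groups overlapped, with exercise libraries 3 and 5 below all sedentary ones. The difference between exercise and sedentary livers was −0.35 ± 0.17 (limma adjusted p = 0.251), and it was −0.20 without exercise library 5. It was −0.14 ± 0.17 between gap-matched and sedentary (0.721) and −0.21 ± 0.17 between exercise and gap-matched livers (0.551).

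Pik3ca, a catalytic subunit, is listed in capitals in the table and had 5.44, 6.04, 5.70, 5.85 and 5.43 FPKM in the exercise libraries, against 4.70, 4.74, 5.46, 4.39 and 4.83 FPKM in the gap-matched and 4.87, 5.34, 4.63, 4.20 and 4.39 FPKM in the sedentary libraries. All 5 exercise libraries lay above the highest sedentary library, and gap-matched library 3 reached into the exercise range. Even so the difference of 0.24 ± 0.08 between exercise and sedentary livers did not pass (limma adjusted p = 0.0918), nor did that of 0.20 ± 0.08 between exercise and gap-matched livers (0.221). Between gap-matched and sedentary livers it was 0.04 ± 0.08 (0.860). With Pik3ca and Irs1 higher and Akt1 lower, 3 of 8 members had exercise and sedentary ranges that did not overlap, against 6.81% of all genes tested. Over all genes the share was 3.15% for higher and 3.66% for lower ones. Between gap-matched and sedentary livers this was so for 1 of 8, Akt1, against 6.03% of all genes (1.47% higher, 4.56% lower). Between exercise and gap-matched livers it was so for 0 of 8, against 3.32% (2.27% higher, 1.04% lower).

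The regulatory subunit exceeded the catalytic one in every library. The ratio of Pik3r1 to Pik3ca was 9.95, 10.1, 7.73, 9.82 and 5.77 in the exercise libraries, against 12.7, 11.3, 11.5, 9.85 and 13.4 in the gap-matched and 11.1, 13.7, 11.3, 13.9 and 17.2 in the sedentary libraries. All 5 exercise libraries lay below the lowest sedentary library, and 3 of 5 below the lowest gap-matched library. The log2 ratio differed by −0.64 ± 0.19 between exercise and sedentary livers (exact two-sided permutation p = 0.00794, the smallest that 5 against 5 libraries can give, and 0.0714 after adjustment over 9 tests). It differed by −0.46 ± 0.17 between exercise and gap-matched livers (exact permutation p = 0.0238, adjusted 0.107) and by −0.18 ± 0.14 between gap-matched and sedentary livers (exact permutation p = 0.198, adjusted 0.345). After adjustment none of the 9 ratio tests passed. No single test could have passed alone, because the smallest possible p of 0.00794 becomes 0.0714 over 9 tests. The adjusted value therefore cannot decide on the difference between exercise and sedentary livers.

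**Figure D3:**
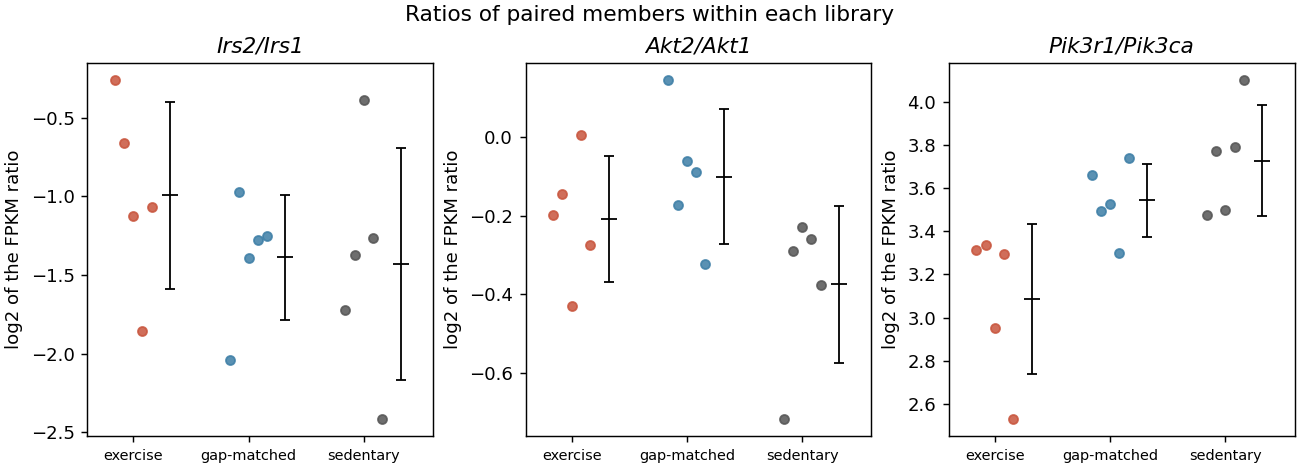
Log2 of the FPKM ratio of paired members (y axes) in the 5 exercise, 5 gap-matched and 5 sedentary libraries, 1 point a library, with the mean ± SD beside the points. The Pik3r1/Pik3ca ratio of the exercise libraries, 5.77 to 10.1, lies below that of the sedentary libraries, 11.1 to 17.2.

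Akt1, the most widely expressed Akt kinase, was the only member called against sedentary livers in both comparisons. It had 39.6, 47.5, 54.6, 45.0 and 48.1 FPKM in the exercise libraries, against 45.4, 46.4, 45.8, 47.8 and 48.0 FPKM in the gap-matched and 73.0, 61.2, 60.3, 57.1 and 62.7 FPKM in the sedentary libraries. The lowest sedentary library thus exceeded every library of the exercise and the gap-matched groups. The gap-matched libraries lay close together and within the exercise range. Akt1 fell by 0.42 ± 0.09 in exercise against sedentary livers (limma adjusted p = 0.0120), with means of 47.0 ± 5.41 FPKM in exercise and 62.9 ± 6.01 FPKM in sedentary livers. It fell by 0.42 ± 0.09 in gap-matched against sedentary livers (limma adjusted p = 0.0181), with a mean of 46.7 ± 1.18 FPKM in gap-matched livers. Exercise and gap-matched livers differed by 0.00 ± 0.09 (limma adjusted p = 0.995), with a 95% interval from −0.18 to 0.19. The calls held in 10 of 10 fits without a library in the first comparison and in 10 of 10 in the second, with adjusted p-values up to 0.0323 and 0.0446. In a fit with a block for the replicate number the first call held and the second was lost (limma adjusted p = 0.0567).

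Akt2, the Akt kinase best known for insulin action on glucose, had 34.5, 43.0, 40.5, 45.2 and 39.8 FPKM in the exercise libraries, against 50.2, 41.1, 43.9, 45.0 and 38.3 FPKM in the gap-matched and 44.4, 50.1, 51.5, 47.7 and 48.3 FPKM in the sedentary libraries. Of the exercise libraries 4 lay below every sedentary library and library 4 within their range. The difference was −0.25 ± 0.09 between exercise and sedentary livers (limma adjusted p = 0.107), −0.15 ± 0.09 between gap-matched and sedentary livers (0.400) and −0.10 ± 0.09 between exercise and gap-matched livers (0.578). The ratio of Akt2 to Akt1 ran from 0.743 to 1.004 in exercise, from 0.799 to 1.11 in gap-matched and from 0.609 to 0.854 in sedentary livers. Its log2 value was higher by 0.27 ± 0.12 in gap-matched than in sedentary livers (exact permutation p = 0.0397, adjusted 0.119) and differed by 0.17 ± 0.11 between exercise and sedentary livers (exact permutation p = 0.190, adjusted 0.345). How reads shared between related genes such as Akt1 and Akt2 were assigned is not given in the sources used here.

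Gsk3b, the Akt substrate that restrains glycogen synthase, had 13.8, 14.97, 14.2, 16.1 and 10.6 FPKM in the exercise libraries, against 15.2, 12.7, 10.7, 10.6 and 11.4 FPKM in the gap-matched and 11.9, 12.8, 13.5, 13.7 and 10.998 FPKM in the sedentary libraries. Exercise libraries 1 to 4 lay above the highest sedentary library, library 1 only just, and library 5 lay below the lowest. The difference was 0.13 ± 0.11 between exercise and sedentary livers (limma adjusted p = 0.581), with a 95% interval from −0.11 to 0.37. It was −0.06 ± 0.11 between gap-matched and sedentary (0.838) and 0.19 ± 0.11 between exercise and gap-matched livers (0.434).

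Beyond the 8 members, 6 lists of genes of the pathway were described. Of 15 receptors and docking proteins 12 were tested. Between exercise and sedentary livers 2 of these 12 rose and 1 fell, against 2.51% and 3.26% of all genes tested, with a median of 0.12. Gab1, a docking protein that also recruits phosphatidylinositol 3-kinase, had 6.999, 8.94, 5.93, 7.44 and 6.13 FPKM in the exercise libraries, against 4.75, 4.23, 5.39, 5.34 and 4.48 FPKM in the sedentary libraries. The groups did not overlap, and Gab1 rose by 0.46 ± 0.11 (limma adjusted p = 0.0257). Irs3, a docking protein first described in rodent fat cells, had 4.68, 6.06, 6.19, 11.6 and 9.53 FPKM in the exercise libraries, against 14.9, 21.9, 14.6, 17.6 and 12.6 FPKM in the sedentary libraries. It thus went the other way from Irs1 and Irs2, without overlap, and fell by 1.05 ± 0.26 (limma adjusted p = 0.0278). Gap-matched livers had 9.46, 7.45, 17.0, 14.9 and 5.91 FPKM of Irs3 and overlapped both groups, with a difference of −0.61 ± 0.26 from sedentary livers (limma adjusted p = 0.235). In the comparisons of gap-matched with sedentary and of exercise with gap-matched livers, limma called 0 of 12 in this list (medians −0.05 and 0.17), with 1 and 4 at an unadjusted p under 0.05. The shares over all genes at that p were 17.8% and 16.5%. Sh2b1, an adaptor that binds the receptor, was nearest to a call between exercise and gap-matched livers apart from Irs1, at 0.29 ± 0.09 (limma adjusted p = 0.127). The Gab1 call was lost without exercise library 1, 2 or 4 or sedentary library 1, 2 or 5, at up to 0.0732. The Irs3 call was lost without exercise library 1, 2 or 3 or sedentary library 1 or 2, at up to 0.0782. With no filter on low genes the adjusted p was 0.0638 for Gab1 and 0.112 for Irs3, and with libraries set to 1 sum it was 0.0604 for Gab1.

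Of 14 subunits of phosphatidylinositol 3-kinase and relatives 10 were tested, and limma called 0 of 10 in each of the 3 comparisons, with medians of 0.12, 0.02 and 0.14 and with 2, 0 and 3 at an unadjusted p under 0.05, which was so for 21.1%, 17.8% and 16.5% of all genes. Beside Pik3ca, the nearest between exercise and sedentary livers was Pik3c2g, a class II enzyme of liver, at 0.37 ± 0.15 (limma adjusted p = 0.149). Pik3c2a, a class II enzyme too, was 0.21 ± 0.11 between gap-matched and sedentary livers (limma adjusted p = 0.337) and −0.28 ± 0.11 between exercise and gap-matched livers (0.233). Pik3cb, another catalytic subunit, averaged 7.44 ± 0.959 FPKM in exercise and 6.90 ± 0.640 FPKM in sedentary livers and did not pass. Pik3r2, another regulatory subunit, averaged 11.5 ± 0.944 FPKM in exercise and 9.96 ± 1.36 FPKM in sedentary livers (difference 0.20 ± 0.11, limma adjusted p = 0.308). Unlike Pik3r1, its mean was the higher one in exercise, and neither difference passed.

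Of 12 genes of Akt and its activating kinases 10 were tested, with 1 higher and 1 lower between exercise and sedentary livers (median −0.11), against 2.51% and 3.26% of all genes. Deptor, which binds and inhibits the kinase mTOR, had 23.9, 29.1, 22.3, 26.0 and 22.0 FPKM in the exercise libraries, against 17.3, 16.6, 22.2, 16.9 and 13.3 FPKM in the sedentary libraries. The groups overlapped only through exercise library 5 and sedentary library 3, and Deptor rose by 0.50 ± 0.12 (limma adjusted p = 0.0279), although the call was lost without exercise library 1, 2 or 4 or sedentary library 1, 2 or 5, at up to 0.0724, and with no filter (0.0805) or libraries set to 1 sum (0.0578). Pdpk1, which phosphorylates Akt in its activation loop, averaged 7.81 ± 1.01 FPKM in exercise, 7.81 ± 1.02 FPKM in gap-matched and 7.30 ± 0.948 FPKM in sedentary livers and did not pass. Between gap-matched and sedentary livers 0 of 10 were higher and 1, Akt1, was lower (median −0.07), against 0.82% and 2.23% of all genes. Between exercise and gap-matched livers limma called 0 of 10 (median 0.02), with 1 at an unadjusted p under 0.05, against 16.5% of all genes. The 2 with the smallest p there were Deptor, at 0.27 ± 0.12 (limma adjusted p = 0.296), and Rictor, a subunit of the mTOR complex that phosphorylates Akt, at 0.11 ± 0.08 (0.534).

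Of 29 inhibitors of the pathway 26 were tested, and 3 rose and 0 fell between exercise and sedentary livers (median 0.07), against 2.51% and 3.26% of all genes. Socs2, which restrains growth hormone signalling, had 15.8, 8.75, 23.8, 12.2 and 10.2 FPKM in the exercise libraries, against 1.32, 3.65, 1.34, 3.81 and 7.88 FPKM in the sedentary libraries, and rose by 1.82 ± 0.44 (limma adjusted p = 0.0229). Inpp4a, a phosphatase of the lipids downstream of phosphatidylinositol 3-kinase, had 4.67, 5.79, 5.78, 6.24 and 5.24 FPKM in the exercise libraries, against 3.88, 3.56, 3.72, 4.35 and 2.91 FPKM in the sedentary libraries, and rose by 0.49 ± 0.11 (limma adjusted p = 0.0200). Inppl1, which removes a phosphate from the lipid that recruits Akt, had 4.46, 5.49, 4.15, 5.05 and 4.36 FPKM in the exercise libraries, against 3.28, 3.39, 3.85, 3.16 and 3.18 FPKM in the sedentary libraries. None of these 3 genes had overlapping groups. They were the only ones of the 26 without overlap, with 3 higher and 0 lower, against 3.15% and 3.66% of all genes. They were named because they passed, so the lack of overlap is not separate evidence. Inppl1 rose by 0.38 ± 0.11 (limma adjusted p = 0.0491), a call that held only without sedentary library 3, at up to 0.114. The call of Inpp4a was lost without exercise library 4 or sedentary library 2 or 5, at up to 0.0551, and that of Socs2 without exercise library 1 or 3 or sedentary library 1 or 3, at up to 0.0583, or with no filter (0.102). The call of Inppl1 was also lost with no filter, pseudocounts of 0.1 and 0.5, quantile normalization, a robust trend and libraries set to 1 sum, at up to 0.108. In the comparisons of gap-matched with sedentary and of exercise with gap-matched livers limma called 0 of 26 (medians 0.01 and 0.04). At an unadjusted p under 0.05 there were 2 and 5, against 17.8% and 16.5% of all genes. Inppl1 was at 0.46 ± 0.11 (limma adjusted p = 0.0546) and Inpp4a at 0.41 ± 0.11 (0.0986) in the second of these comparisons. In the first the smallest p were those of Ptpn1, a phosphatase of the receptor, at −0.24 ± 0.11 (limma adjusted p = 0.262), and Trib1, at −0.52 ± 0.25 (0.279). Trib1 was also lower in exercise than in sedentary livers, at −0.83 ± 0.25 (limma adjusted p = 0.0575), and did not pass there either.

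Of 26 Akt substrates and their partners 23 were tested. Between exercise and sedentary livers 0 rose and 1 fell (median 0.06), against 2.51% and 3.26% of all genes. In gap-matched against sedentary livers 1 rose and 1 fell (median −0.11), against 0.82% and 2.23% of all genes. Counts of 1 gene are too small to set against these shares. The lower gene was Acly, an enzyme of lipid synthesis that Akt phosphorylates, in both, and with no filter it missed the threshold in the second (limma adjusted p = 0.0511). Pfkfb2, a bifunctional enzyme that sets the level of a glycolytic activator, had 5.98, 6.68, 5.198, 5.90 and 6.46 FPKM in the gap-matched libraries, against 4.26, 3.87, 3.75, 4.20 and 4.82 FPKM in the sedentary libraries. The groups did not overlap, and Pfkfb2 rose by 0.44 ± 0.11 in gap-matched livers (limma adjusted p = 0.0414), a call that held only without gap-matched library 3, at up to 0.105, and that was lost with no filter (0.0897) and with libraries set to 1 sum (0.0633). Gsk3a, the partner of Gsk3b, averaged 20.03 ± 2.30 FPKM in exercise, 17.4 ± 2.47 FPKM in gap-matched and 19.1 ± 2.23 FPKM in sedentary livers and did not pass. Of the FoxO factors, Foxo1 averaged 14.7 ± 5.50 FPKM in exercise and 12.6 ± 1.89 FPKM in sedentary livers, and Foxo3 15.8 ± 10.1 FPKM in exercise and 9.22 ± 0.842 FPKM in sedentary livers, and neither passed (limma adjusted p = 0.753 and 0.273). Between exercise and gap-matched livers limma called 0 of 23 (median 0.09, with 6 at an unadjusted p under 0.05, against 16.5% of all genes). The groups did not overlap for 2 of 23, Ywhag, an adaptor that binds phosphorylated Akt substrates, and Rheb, the activator of mTOR. Both were higher in exercise, which was so without overlap for 2.27% of all genes, with 1.04% lower. Ywhag averaged 38.3 ± 9.11 FPKM in exercise and 25.4 ± 3.04 FPKM in gap-matched livers (difference 0.55 ± 0.15, limma adjusted p = 0.0949). In sedentary livers it averaged 38.4 ± 6.99 FPKM, so that the gap-matched mean was the low one. Its difference was −0.57 ± 0.15 between gap-matched and sedentary livers (limma adjusted p = 0.0544) and −0.01 ± 0.15 between exercise and sedentary livers (0.971). Rheb averaged 51.96 ± 1.86 FPKM in exercise and 43.7 ± 3.12 FPKM in gap-matched livers (difference 0.25 ± 0.08, limma adjusted p = 0.134). In sedentary livers Rheb averaged 46.6 ± 4.01 FPKM, between the other 2 means.

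Of 21 transcripts known to respond to FoxO or insulin, 20 were tested, and they did not move in 1 direction. Between exercise and sedentary livers 1 rose, the gluconeogenic enzyme Pck1, and 1 fell, the lipogenic factor Srebf1 (median −0.09), against 2.51% and 3.26% of all genes. The Pck1 call was lost without exercise library 1 (limma adjusted p = 0.0528), and that of Srebf1 without exercise library 1 or sedentary library 2, at up to 0.0543. With no filter both were lost, at 0.0831 for Pck1 and 0.0703 for Srebf1. Between gap-matched and sedentary livers 0 rose and 2 fell (median −0.08), against 0.82% and 2.23% of all genes. The 2 were Srebf1 and Pdk4, a kinase that inhibits pyruvate dehydrogenase. The Srebf1 call held there only without gap-matched library 3 or sedentary library 4 or 5, at up to 0.0857, and was lost with no filter (0.104), quantile normalization (0.0532) and a fit of the 2 groups alone (0.0684). Pdk4 had 15.9, 29.4, 19.2, 18.2 and 15.2 FPKM in the gap-matched libraries, against 26.6, 51.7, 36.3, 35.8 and 39.6 FPKM in the sedentary libraries. The groups overlapped through gap-matched library 2 and sedentary library 1, and Pdk4 fell by 0.93 ± 0.21 (limma adjusted p = 0.0275), a call that was lost without gap-matched library 1, 4 or 5 or sedentary library 2, 3 or 5, at up to 0.0819, or with no filter (0.110) or median-of-ratios scaling (0.0556). Pck1 and Pdk4 are both known as transcripts that insulin lowers, and Pck1 had its highest mean in exercise and Pdk4 in sedentary livers. Igfbp1, a further transcript that insulin lowers, averaged 65.5 ± 42.5 FPKM in exercise, 34.5 ± 39.4 FPKM in gap-matched and 48.8 ± 44.0 FPKM in sedentary livers, and its spread exceeded the differences between the means. Limma called 0 of 20 between exercise and gap-matched livers (median 0.20, with 2 at an unadjusted p under 0.05, against 16.5% of all genes). Apart from Irs2, described above, the smallest p there was that of Angptl4, an inhibitor of lipoprotein lipase, at 0.996 ± 0.308 (limma adjusted p = 0.134).

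**Figure D4:**
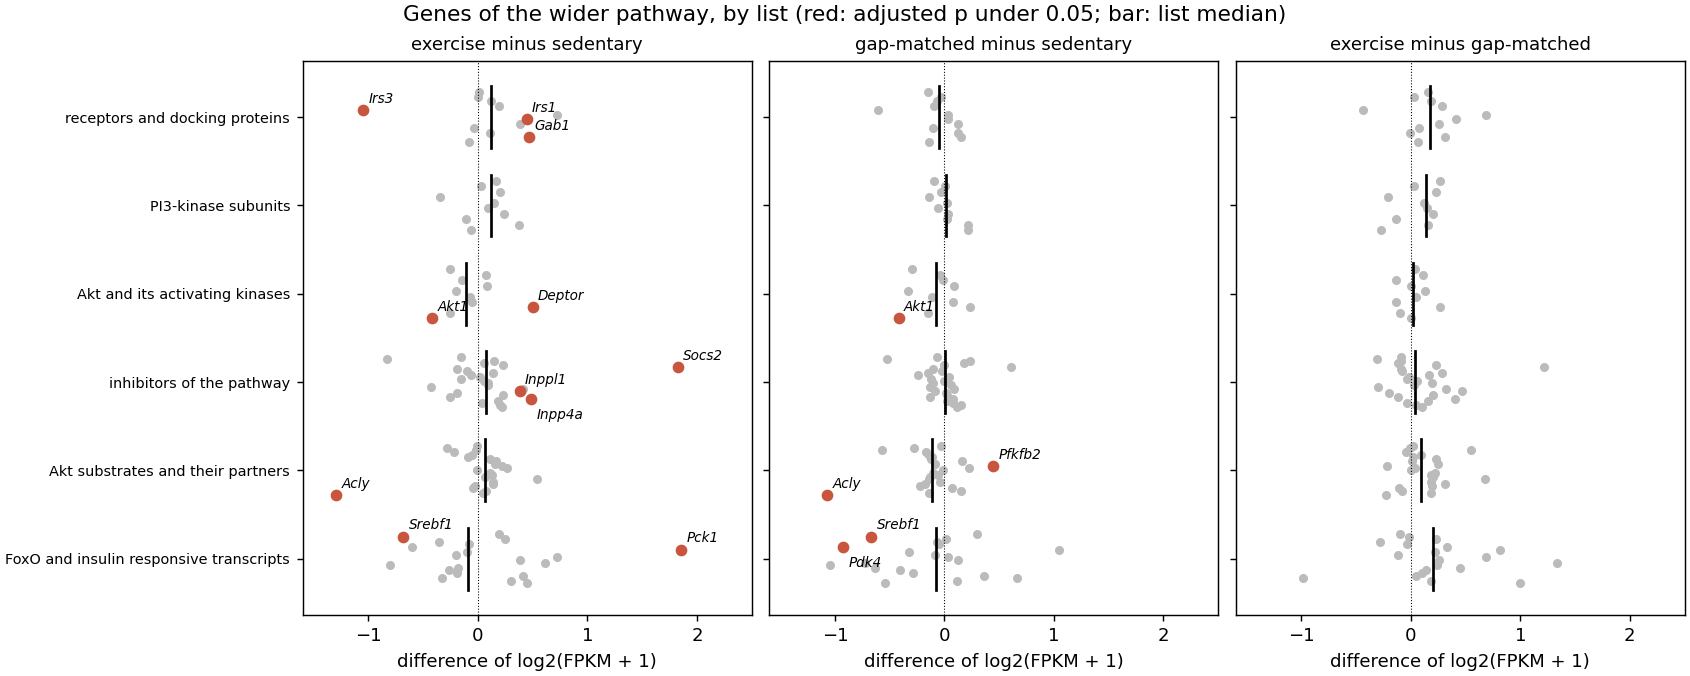
Differences of log2(FPKM + 1) (x axes) for the tested genes of 6 pathway lists (y axis) in the 3 comparisons, 1 point a gene, red and named where the adjusted p was under 0.05, with a bar at the list median. Red points lie on both sides of 0 between exercise and sedentary livers, from Acly at −1.30 to Pck1 at 1.86, and 0 points are red between exercise and gap-matched livers.

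Within groups the members varied largely apart from one another. Over the 28 pairs, the Pearson correlation of the deviations from the group means across the 15 libraries ran from −0.45 (Irs2 and Akt1) to 0.77 (Insr and Gsk3b), with a median of 0.08, and 1 pair exceeded 0.5 in size. For Insr and Gsk3b Spearman's rho was 0.79, and Pearson's r was 0.63 without the 2 libraries farthest from the median of Insr. Both had their lowest exercise value in library 5 and their highest in library 4, and both had their lowest sedentary value in library 5. Insr and Irs1 did not vary together (r = 0.00). These correlations describe values that share the library and its scaling.

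By the same measure, the named genes whose deviations were most like those of Insr were Icam1, an adhesion molecule (r = 0.90, rho = 0.86), Pltp, the phospholipid transfer protein (r = 0.90, rho = 0.93), and Pxdn, a peroxidase of basement membranes (r = 0.90, rho = 0.87). Those most like Irs1 were Znrf3, a ubiquitin ligase that restrains Wnt signalling (r = 0.87, rho = 0.79), Fam198a (r = 0.79, rho = 0.78) and PLD2, a phospholipase D (r = 0.79, rho = 0.76). Those most like Irs2 were Jmy, a regulator of actin assembly (r = 0.78, rho = 0.85), RGD1306271 (r = 0.76, rho = 0.64) and Larp1b, an RNA-binding protein (r = 0.76, rho = 0.79). They were picked as the highest of all named genes tested, over 15 libraries, and 0 of these 9 genes passed in any comparison.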

How the data were processed

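RNA of rat liver was sequenced in 15 libraries, and the authors deposited FPKM, a fragment count scaled by gene length and library size, 1 value per gene and library. Trimmomatic, Cufflinks and the build Rnor_5.0 were named, without versions or roles, in the submitters' processing notes. The aligner and filters are not given in the sources used here. Of 26407 entries, 2 repeated an identifier and 2 held a placeholder value, and these were dropped. The groups and columns follow the labels.

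Genes averaging under 1 FPKM were set aside, and log2(FPKM + 1) of the other 11216 was modelled in limma 3.58.1 (R 4.3.3) in 1 fit of the 3 groups, with a mean-variance trend, tested on both sides and adjusted by Benjamini-Hochberg over all genes tested. Ratios of member pairs were tested by exact permutation in scipy 1.17.1. Depth was judged from the commonest ratio of values between libraries among genes under a mean of 0.3 FPKM. Simulated normal values, drawn independently for each gene, were given its spread around the 3 group means over the 15 libraries. With 11216 such genes tested between exercise and sedentary, 88 of 100 log2 changes of 1 and 52 of 100 of 0.5 were recovered, with 1 false call.

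The members and lists were chosen with earlier results of these data known. The named genes were the 8 members, up to 4 passing genes with the smallest p of each list and comparison (the 2 with the smallest p where 0 passed), and the 3 genes most like Insr, Irs1 and Irs2. A few genes are not reported here. Pdpk1, Pik3cb, Pik3r2, Gsk3a, Foxo1, Foxo3 and Igfbp1 were added after their values were seen, for their roles. Alternatives were other pseudocounts, filters and scalings, fits of 2 groups, library weights, no trend or a robust one, a replicate block, and without each library.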

Additional observations from a re-analysis of the deposited data

Results flagged for a closer look

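Sedentary library 3 had 5.78 FPKM of Irs2, and the gap to the next sedentary library, at 2.66 FPKM, made up most of the range of that group. It was the 1 such value among 33 groups of 5 checked, and chance gives about 1 in 20 groups.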

How the results depend on the processing

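Over 525 alternative values of the 24 member differences, 493 kept their direction and side of the threshold (Irs2 had no value under a filter of 5 FPKM), 12 calls were lost and 1 was gained. In 19 a difference near 0 changed sign. Irs1 in exercise against sedentary livers kept 0.44 but lost its call with no filter (adjusted p = 0.112) and with the replicate block (0.0627), and lost it at 0.42 with libraries scaled to the same sum (0.0895). Without a library its difference lay between 0.38 and 0.49 and passed in 2 of 10 fits. Irs2 in this comparison lay between 0.51 and 0.94 without a library. Akt1 in gap-matched against sedentary livers kept −0.42 with the replicate block but lost its call (adjusted p = 0.0567). The replicate block also ended the calls of Gab1 (0.0590), Deptor (0.0627), Inppl1 (0.0742) and Socs2 (0.0575) between exercise and sedentary livers, and of Pdk4 (0.0562) and Pfkfb2 (0.0778) between gap-matched and sedentary livers.

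Between gap-matched and sedentary livers, scaling to the same sum turned Irs1 to −0.029, Irs2 to −0.015 and Pik3ca to −0.023. Without a library these lay between −0.055 and 0.10, −0.097 and 0.26, and −0.0020 and 0.076, and the log2 Irs2/Irs1 ratio between −0.20 and 0.30. Akt1 between exercise and gap-matched livers was −0.048 with median-of-ratios scaling, −0.0031 with quantile normalization, −0.010 with library weights and between −0.054 and 0.059 without a library. 

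Genes called in exercise against sedentary livers numbered 648, and 334 with no filter, 1108 at a threshold of 0.1 and 342 to 642 without a library. In gap-matched against sedentary livers they numbered 342, and 168 with no filter, 653 at 0.1, 201 with the replicate block and 147 to 357 without a library. In exercise against gap-matched livers they numbered 101, and 29 with no filter, 34 after scaling to the same sum, 16 with only the 2 groups, 20 with the replicate block, 272 at 0.1 and 18 to 131 without a library. With no filter more genes were tested. The cause of the other changes was not tested. Deviations of libraries with the same replicate number correlated between −0.27 and 0.19. In each comparison at most 1 of 5 correlated best with its own number. Such correlations cannot decide whether the numbers pair the libraries, and the labels do not say. With the replicate block 449 genes were called in exercise against sedentary livers. Depth is known only in relative terms and gives no counting interval.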
